A study of Mus musculus with 48 samples.

Results

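The 24-h course of the sWAT transcriptome was examined in the ad-lib mice alone, using the 24 ad-lib libraries among the 48 bulk RNA-seq libraries of the series, which were taken by their column names. They fall into 6 groups of 4, labelled 12 AM, 4 AM, 8 AM, 12 PM, 4 PM and 8 PM. All came from the inguinal white adipose tissue of C57BL/6 mice aged 8 months with free access to food. The study adds that the mice were male C57BL/6J, fed ad-lib on regular chow for 6 months. They were housed under 12 h of light from 8 AM to 8 PM. The other 24 libraries, from mice on timed night feeding (TAN), were used in an alternative fit only. The groups carry no transgene and no treatment beyond free feeding. The labels number the libraries of a time from 1 to 4 but do not say that each came from its own animal. Some legends of the study give n = 4 for the RNA-seq of ad-lib and TAN mice. The legend that introduces the 6 times gives a larger number, and a passage of the methods names fewer replicates per condition. The p-values measure the spread between these libraries, and whether part of it is technical was not tested.

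The circadian clock of mammalian cells is a feedback loop of transcription. CLOCK or its relative NPAS2 pairs with ARNTL (BMAL1) and switches on the Per and Cry genes, whose proteins return to block the pair, while the nuclear receptors NR1D1 and NR1D2 (REV-ERB) repress Arntl and Npas2. The loop drives outputs such as the PAR bZIP factors DBP, TEF and HLF, and in adipose tissue it meets daily cycles of feeding, glucocorticoid and body temperature that bear on lipid synthesis and release.

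For each gene a cosine and a sine of 24-h period were fitted across the 24 libraries. The amplitude is the log2 distance from the middle of the fitted curve to its peak, so the peak-to-trough fold is 2 to the power of 2 amplitudes, and the peak is given in hours of the labelled day, with 0 at 12 AM. Levels are CPM, counts scaled to a common library total with TMM factors, and amplitudes are on log2 CPM with a prior count of 2. Both terms were tested together with edgeR's quasi-likelihood F test, and a gene was called at a Benjamini-Hochberg adjusted p under 0.05 over all tested genes. Of 54532 listed genes, 18843 passed the filter on low counts. Errors of amplitudes and peaks are standard errors (SE) of the fit with n = 24.

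Before the results, some properties of the libraries must be given. The clock genes of 4 AM library 1 stood apart from its label. Over the 45 tested core clock and output genes, its deviations from the mean of all libraries correlated with those of the 4 PM libraries (r = 0.82) and ran opposite to those of the other 4 AM libraries (r = -0.76). Of the 22 clock and output genes with an unadjusted p under 0.05, it lay within the range of the 4 PM libraries for 16 and within the range of the other 4 AM libraries for 5. Over all tested genes the corresponding shares were 63.2% and 48.1%. The 4 PM range is that of 4 libraries and the 4 AM range that of 3, and a range over more libraries tends to be wider. The 22 genes were chosen by a fit that used these same time labels. In 4 AM library 3 the clock genes were most like those at 12 PM (r = 0.58) and did not follow the other 4 AM libraries (r = -0.34). Against the mean of 4 AM libraries 2 and 4 alone, r was 0.05 for library 3 and -0.57 for library 1, and those 2 libraries correlated with each other at 0.51. Of the 24 libraries, 14 were most like their own time and 20 were most like their own or a neighbouring time, while the 4 PM libraries were the tightest group (r = 0.77 to 0.87). These correlations are across genes that share libraries and are given as a description. In depth (18277512 counts), mitochondrial share (6.16%) and lymphocyte marker level (7.33 log2 CPM) 4 AM library 1 lay within the range of the other libraries. It had the highest mammary epithelium marker level (-0.64 log2 CPM, others -3.43 to -1.41), whose part in its clock genes was not tested. It keeps its label here, and values without it are given beside those with it. Since libraries 1 and 3 were singled out by their clock genes, a fit without either is no independent test of clock genes. This holds for every such value of a core clock or output gene below.

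**Figure D1:**
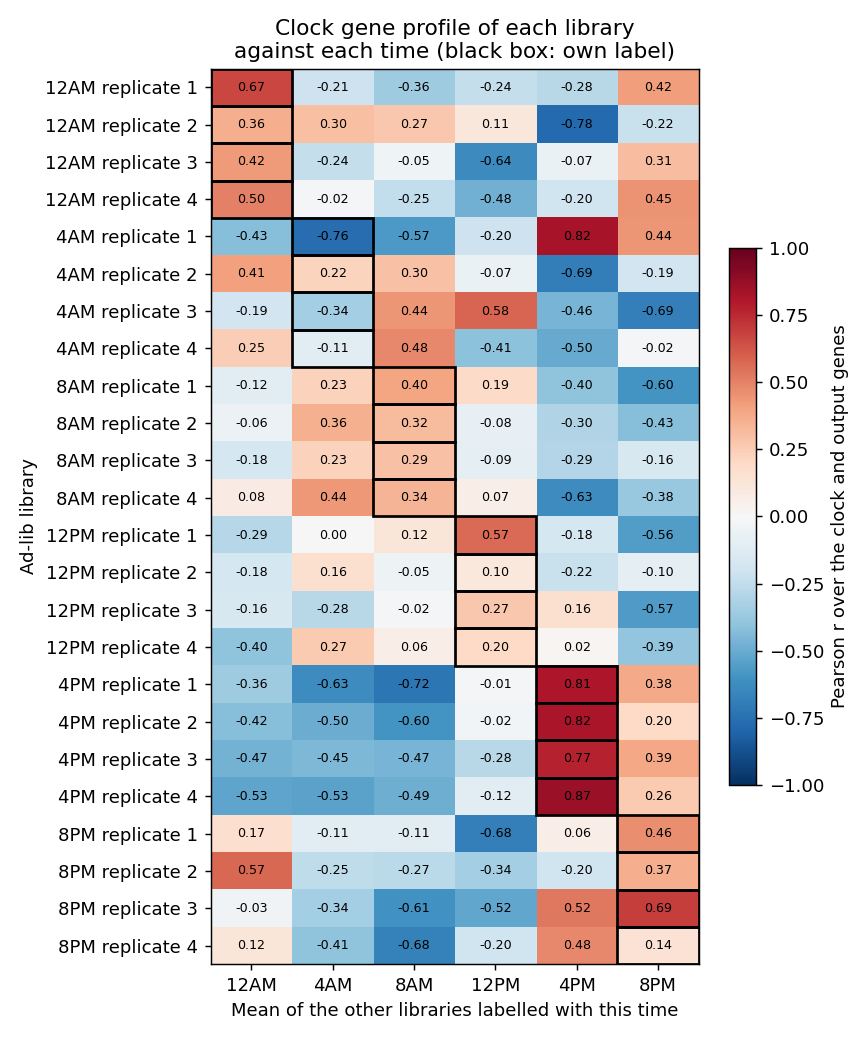
Pearson r over 45 core clock and output genes between each ad-lib library (rows) and the mean of the other libraries labelled with each time (columns), with the library's own label boxed. The 4 PM libraries reach 0.77 to 0.87 in their own column, and 4 AM library 1 has 0.82 in the 4 PM column and -0.76 in its own.

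The libraries also differed in cell content. Adipocyte markers were high throughout, with a mean of 9.80 to 11.51 log2 CPM over the 10 genes, and Cfd, the adipokine adipsin, averaged 11541 CPM. The series text names the stromal vascular fraction, a preparation that by definition lacks mature adipocytes, and the study names whole sWAT. These levels are those of tissue that holds adipocytes. The summed level of the 10 lymphocyte markers, by contrast, ran from 31.6 to 3040 CPM, and that of the 10 skeletal muscle markers from 36.5 to 6792 CPM. None of the markers in these 3 lists was at 0 in every library. The clock time of the samples is also ambiguous. A per-animal table that accompanies the study carries the same values under the same animal names but 12 h apart for 24 of 24 ad-lib libraries. The deposited tables use one labelling throughout, which is followed here. Under the other labelling no p-value or amplitude would change and every peak would move by 12 h. As background, in peripheral tissues of mice held in light and dark Arntl and Npas2 are known to peak around the change from dark to light, and Nr1d1 in the light. Total counts ran from 15636378 to 29913310 per library, and 0 pairs of libraries were identical.

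A 24-h rhythm was called for 2 of 18843 genes (0.0106%), Npas2 and Fkbp5. On the same libraries DESeq2 called 84 genes, and a fit with the mammary epithelium marker level as a covariate, which was highest in 4 AM library 1, called 289. That covariate rests on few reads. Its 10 markers summed to 0 to 16.8 CPM per library, and 4 of them passed the filter on low counts. At an unadjusted p under 0.05 there were 1900 genes (10.1%). Just outside the threshold came Per2 (adjusted p = 0.0895, edgeR), Dtx4 (0.148) and Wee1 (0.148). A test for any difference between the 6 times called 3 genes (0.0159%), namely Gm28661, Nr1d1 and Npas2, with 877 genes (4.65%) at an unadjusted p under 0.05. A 12-h harmonic added to the 24-h terms was called for 0 genes (0%) by edgeR, with 713 genes (3.78%) at an unadjusted p under 0.05, and limma voom also called 0. Without 4 AM library 1, 50 of 19440 genes were called (0.257%), the test between the 6 times called 10, and 3121 genes (16.1%) had an unadjusted p under 0.05. No other single library moved the count of 24-h calls beyond 1 to 5.

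**Figure D2:**
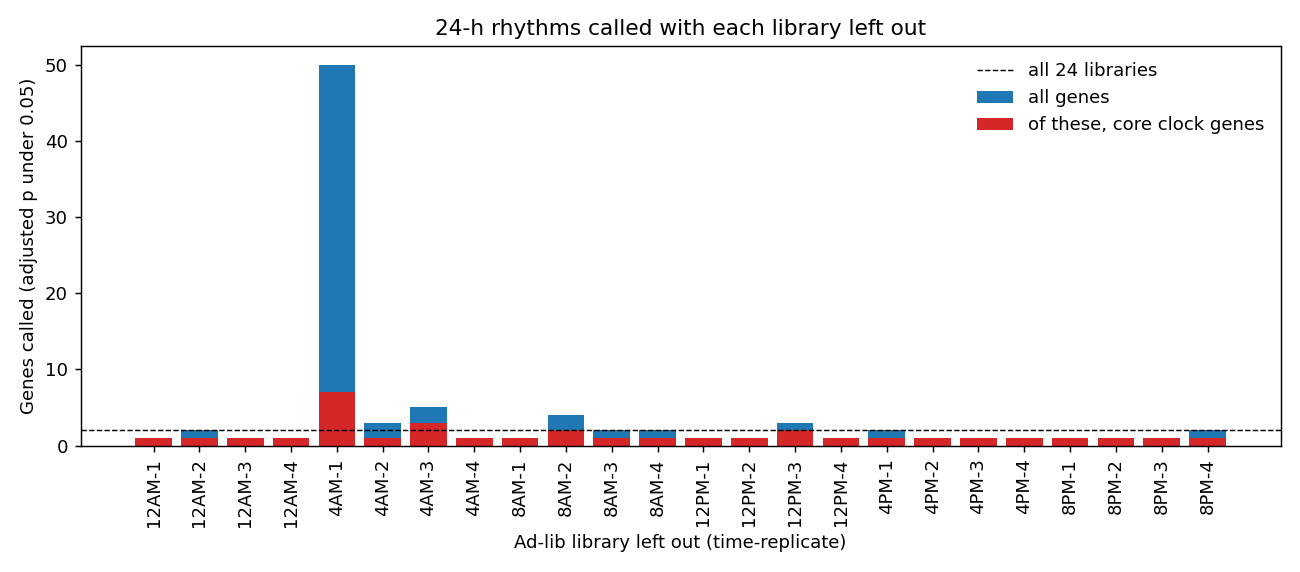
Number of genes called for a 24-h rhythm (adjusted p under 0.05, edgeR) when each ad-lib library in turn was left out, with core clock genes in red and the count with all 24 libraries (2) as a dashed line. Leaving out 4 AM library 1, which was singled out by its clock genes, gave 50 calls, 7 of them core clock genes. Each other fit gave 1 to 5.

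In the positive arm of the clock, Npas2 had the smallest p of all tested genes. Npas2 (ENSMUSG00000026077, chr1:39193731-39363236, GRCm38, plus strand) encodes the partner of ARNTL that can take the place of CLOCK. At 8 AM its level was 11.2, 8.64, 3.55 and 9.79 CPM in libraries 1 to 4, against 0.58, 0.20, 0.27 and 0.18 CPM at 8 PM and 0.24, 0.36, 0.085 and 0.60 CPM at 4 PM. At 4 AM it was 0.16, 3.12, 9.42 and 2.67 CPM, at 12 PM 2.33, 0.61, 1.44 and 2.40 CPM, and at 12 AM 0.66, 1.10, 0.19 and 0.34 CPM. All 8 AM libraries therefore lay above all libraries of 12 AM, 12 PM, 4 PM and 8 PM, and the low groups rest on few reads, from 2 to 15 counts per library at 4 PM. The fitted amplitude was 2.14 ± 0.33 (log2), a 19.5-fold peak-to-trough change, with a peak at 7.45 ± 0.60 h, and the cosine took 66.1% of the variance (edgeR adjusted p = 0.00195). Within 4 AM, library 1 stood at the level of the 4 PM libraries and library 3 at that of 8 AM. Without library 1 the amplitude was 2.36 and the adjusted p was 6.22e-05. The call held in 24 of 24 fits that left out a single library. It did not hold across methods, since limma voom on all 24 libraries called 2 genes and Npas2 was not among them. Fits without all libraries of replicate number 2, or of number 4, called 0 genes.

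Arntl, the common partner in the positive arm, is the gene without which the loop stops. Its mean was 10.6 CPM at 4 PM (6.98 to 14.5 CPM) and 33.6 CPM at 8 AM (23.4 to 46.4 CPM), and these groups did not overlap. Its fitted peak was at 5.64 ± 0.89 h, with an amplitude of 0.68 ± 0.16, but it was not called (adjusted p = 0.346, edgeR; 0.0512 without 4 AM library 1). At 4 AM library 1 had 14.0 CPM of Arntl and the others 28.3 to 30.7 CPM. Clock itself had an amplitude of 0.18 ± 0.14 (adjusted p = 0.734), with means between 75.1 CPM at 4 PM and 149 CPM at 12 PM, and Arntl2 one of 0.14 ± 0.16 (adjusted p = 0.896). The fitted amplitudes in the positive arm thus ranged from 2.14 for Npas2 to 0.14 for Arntl2, and the differences between these genes were not tested.

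**Figure D3:**
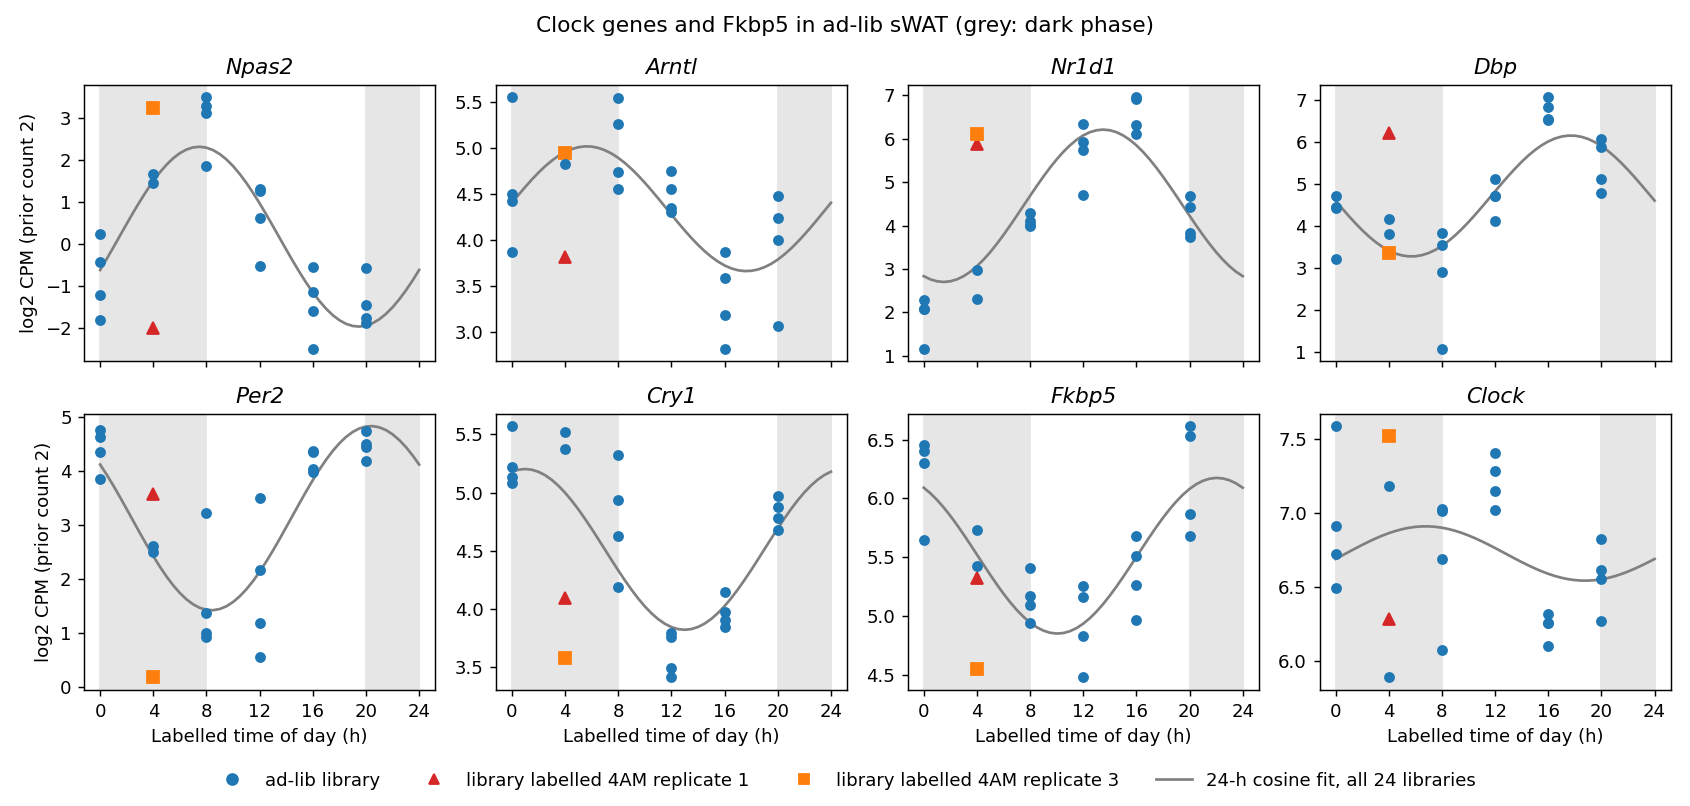
log2 CPM (prior count 2) of Npas2, Arntl, Nr1d1, Dbp, Per2, Cry1, Fkbp5 and Clock in each ad-lib library against the labelled hour, with the 24-h cosine fit as a line, the dark phase in grey, 4 AM library 1 as a red triangle and 4 AM library 3 as an orange square. The red triangle lies near the 4 PM points in Npas2, Nr1d1 and Dbp, and the orange square lies with the 12 PM points in Nr1d1 and Cry1.

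Of the negative arm, Per2 came nearest to a call. PER2 is a repressor whose protein, with CRY, holds the ARNTL pair inactive. Per2 stood at 21.8, 18.0, 22.7 and 26.7 CPM in the 8 PM libraries, 20.3, 14.4, 27.1 and 24.7 CPM at 12 AM, and 20.3, 15.8, 16.4 and 20.6 CPM at 4 PM. At the remaining times it was 11.9, 6.05, 1.04 and 5.58 CPM at 4 AM, 1.81, 9.24, 2.49 and 1.90 CPM at 8 AM, and 1.38, 2.17, 11.3 and 4.42 CPM at 12 PM. The libraries of 4 PM, 8 PM and 12 AM all lay above those of 4 AM, 8 AM and 12 PM. The amplitude was 1.71 ± 0.26 (10.7-fold peak to trough) and the peak 20.4 ± 0.59 h. The adjusted p was 0.0895 with edgeR and 0.0159 without 4 AM library 1, and limma-trend on all 24 libraries gave 0.0237.

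Per3 and Per1 had fitted peaks at 18.9 ± 0.82 h and 18.1 ± 1.52 h, and their distance from Per2 was not tested. Per3 averaged 89.7 CPM at 4 PM and 19.9 CPM at 8 AM, without overlap, and 4 AM library 1 held 91.7 CPM against 8.35 to 23.9 CPM in the other 4 AM libraries. Its adjusted p was 0.346 with all libraries and 0.0179 without that one. Per1 had an amplitude of 0.58 ± 0.23 and an adjusted p of 0.482, and leaving out 4 AM library 1 gave 0.209. Cry1 had its fitted peak at 0.99 ± 0.81 h, with 33.8 to 47.5 CPM at 12 AM and 10.5 to 13.7 CPM at 12 PM. At 4 AM, Cry1 stood at 2 levels, 45.8 and 41.5 CPM in libraries 2 and 4 and 16.9 and 11.8 CPM in libraries 1 and 3. The adjusted p was 0.148 with all libraries and 0.0167 without library 1. Cry2, its paralog, had an amplitude of 0.12 ± 0.14 (adjusted p = 0.96), and its lowest and highest times overlapped.

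Ciart (CHRONO), a further repressor of the ARNTL pair, and Per3 and Cry1 are shown with 250 bases upstream of their start sites, because these windows hold matches to motifs known from clock genes. The E-box CACGTG is bound by the ARNTL pair and the D-box TTATGNAA by DBP, TEF, HLF and NFIL3, and both were searched on both strands. Letters in capitals mark the motif found, and the sequences are those of RefSeq on GRCm38.p6, written 5′ to 3′ along the gene, from chr3:95882229-95882478 (minus strand), chr4:151044666-151044915 (minus strand) and chr10:85185055-85185304 (minus strand).
Ciart: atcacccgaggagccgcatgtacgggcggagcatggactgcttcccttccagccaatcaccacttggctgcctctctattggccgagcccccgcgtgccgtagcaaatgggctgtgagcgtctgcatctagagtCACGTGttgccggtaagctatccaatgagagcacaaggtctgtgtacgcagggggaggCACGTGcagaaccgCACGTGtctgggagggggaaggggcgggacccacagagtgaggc
Per3: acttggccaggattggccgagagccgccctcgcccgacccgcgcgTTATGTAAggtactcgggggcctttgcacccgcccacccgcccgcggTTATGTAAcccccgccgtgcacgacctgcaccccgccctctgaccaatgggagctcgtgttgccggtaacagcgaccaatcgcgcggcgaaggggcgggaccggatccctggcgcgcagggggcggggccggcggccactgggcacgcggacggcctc
Cry1: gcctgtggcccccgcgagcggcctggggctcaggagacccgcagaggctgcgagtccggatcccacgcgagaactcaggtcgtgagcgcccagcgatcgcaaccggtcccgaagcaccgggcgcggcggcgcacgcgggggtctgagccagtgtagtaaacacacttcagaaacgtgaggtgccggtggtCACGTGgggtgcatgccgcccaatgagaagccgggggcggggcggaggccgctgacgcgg
The Ciart promoter holds 3 E-boxes, starting 116, 58 and 44 bases before the start site, the Per3 promoter 2 D-boxes and the Cry1 promoter 1 E-box. Of 46 clock and output symbols, 37 matched the promoter table. These had 50 promoters, of which 11 (22%) held an E-box and 3 (6%) a D-box, against 6.02% and 3.07% of 32851 promoters of this length. Promoters of 1 gene can overlap. The motif AGGTCA, to which NR1D receptors bind, was found in 7 of the 50 (14%) and in 14.0% of all promoters. None of the 3 motifs was found in the windows of Npas2, Arntl, Nr1d1 and Dbp. A match describes the letters only and says nothing of binding.

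Ciart ranged from 5.65 to 9.50 CPM at 4 PM and from 1.33 to 2.53 CPM at 8 PM, and 4 AM library 1 had 6.96 CPM. All other libraries lay between 0 and 1.54 CPM, with 0 to 48 counts each. Its fitted peak was 18.0 ± 0.92 h, its amplitude 1.81 ± 0.44 and its adjusted p 0.509. Without 4 AM library 1 the amplitude was 2.17 and the adjusted p 0.0284.

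In the nuclear receptor loop, Nr1d1 had the third largest amplitude of the core clock genes, after Npas2 and Ciart, and the earliest fitted peak in the light phase. Nr1d1, the REV-ERB alpha repressor, stood at 69.4, 124, 80.0 and 120 CPM at 4 PM and 53.3, 26.0, 60.4 and 80.5 CPM at 12 PM, against 4.10, 2.14, 4.78 and 4.14 CPM at 12 AM. At 8 AM it was 15.7 to 19.5 CPM and at 8 PM 13.1 to 25.7 CPM. The 4 AM libraries were split, with 58.5 and 69.4 CPM in libraries 1 and 3 and 7.83 and 4.87 CPM in libraries 2 and 4. The means at 4 PM and 12 AM differed 25.9-fold without overlap. The amplitude was 1.76 ± 0.34 and the peak 13.5 ± 0.74 h, with an adjusted p of 0.423 for the cosine and 0.0329 for the test between the 6 times. Its added 12-h harmonic had an unadjusted p of 0.000253 (edgeR, adjusted p = 0.647). The highest mean was at 4 PM (98.2 CPM), later than the fitted peak, so the cosine describes its course loosely. Without 4 AM library 1 the cosine gave 0.0979 and without both library 1 and library 3 it gave 5.41e-08, with an amplitude of 2.31 and a peak at 14.2 h (56 of 20461 genes called, 0.274%, and 3307 genes, 16.2%, at an unadjusted p under 0.05). Both libraries were singled out by clock genes, Nr1d1 among them, so this value is a description and no test. limma voom called Nr1d1 on all 24 libraries.

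Nr1d2, its paralog, lay between 174 and 285 CPM at 4 PM and between 34.6 and 68.2 CPM at 8 AM, with 219 CPM in 4 AM library 1 against 56.8 to 91.1 CPM in the other 4 AM libraries. The peak was 17.2 ± 0.71 h, the amplitude 0.90 ± 0.17 and the adjusted p 0.273, or 0.000243 without 4 AM library 1. Rora and Rorb had adjusted p-values of 0.874 and 0.924. Nr1d1 and Nr1d2 thus had fitted peaks in the light phase of the labels.

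Over the 20 core clock genes, all of which passed the filter, 1 was called and 9 had an unadjusted p under 0.05, beside 0.0106% and 10.1% of all tested genes. Their median amplitude was 0.39, beside 0.27 over all tested genes. Without 4 AM library 1, 7 were called, beside 0.257% of all genes, among them Npas2, Nr1d2, Per2, Cry1, Per3 and Ciart. That library was singled out by the clock genes themselves, so these calls are a description and no test. The kinases Csnk1d and Csnk1e, which set the stability of PER, had amplitudes of 0.10 and 0.13, and neither was called. Fbxl21 and Timeless had amplitudes of 0.32 and 0.31 and were not called either.

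**Figure D4:**
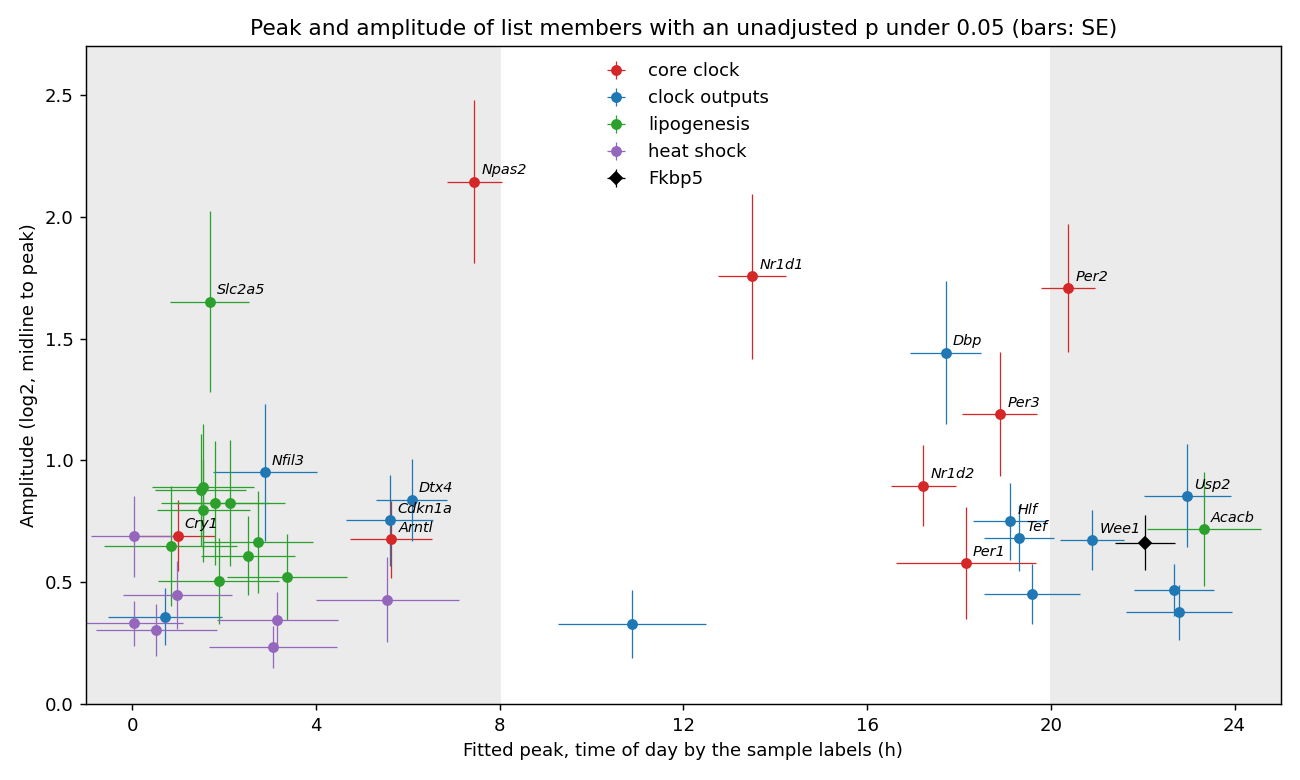
Fitted peak (hours of the labelled day) and amplitude (log2) with their SE for members of the core clock, clock output, lipogenesis and heat shock lists that had an unadjusted p under 0.05 and are reported here, and for Fkbp5, with the dark phase in grey. Npas2 at 7.45 h and Per2 at 20.4 h mark opposite sides of the day, and the lipogenesis genes sit between 23.3 h and 3.4 h.

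Among the 25 output genes tested, 0 were called by edgeR and 13 had an unadjusted p under 0.05 (52%, beside 10.1% of all genes), and DESeq2, which called 84 genes in all, called Dtx4, Wee1, Dbp, Tef, Hlf and Nfil3 among them. Dbp, Tef and Hlf are given here although they lie outside the rule for named genes, having been chosen after their values were seen. Dbp, the best known direct target of the ARNTL pair, stood at 115, 134, 93.4 and 91.6 CPM at 4 PM and 2.01, 11.5, 14.2 and 7.44 CPM at 8 AM. All 4 PM libraries lay above every library of the other times, the nearest being 4 AM library 1 at 74.1 CPM, where libraries 2 to 4 had 10.2 to 17.7 CPM. The peak was 17.7 ± 0.78 h and the amplitude 1.44 ± 0.29.

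Tef and Hlf had fitted peaks at 19.3 ± 0.76 h and 19.1 ± 0.81 h, with amplitudes of 0.68 ± 0.14 and 0.75 ± 0.16. Nfil3, the repressor that competes with these factors at D-boxes, peaked on the other side of the day at 2.89 ± 1.13 h, with 20.8 to 29.2 CPM at 12 AM and 2.43 to 4.33 CPM at 4 PM. In 4 AM library 1 Nfil3 was 1.79 CPM and in the other 4 AM libraries 15.4 to 19.0 CPM. Without that library Dbp (adjusted p = 0.000967), Nfil3 (0.00743), Hlf (0.0143), Tef (0.016), Dtx4 (0.00191), Wee1 (0.0259) and Cdkn1a (0.032) were called. All of them were among the genes by which that library was singled out, so these calls are a description and no test. Wee1, a kinase that restrains entry into mitosis, peaked at 20.9 ± 0.69 h with 18.5 to 24.2 CPM at 8 PM and 9.28 to 10.3 CPM at 12 PM. Dtx4, a ubiquitin ligase of the Deltex family, peaked at 6.08 ± 0.77 h and was lowest at 4 PM, where its libraries held 19.5 to 27.2 CPM.

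By their fitted values alone, the peaks ran from Cry1 near the middle of the labelled night over Nfil3, Arntl and Npas2 toward its end, to Nr1d1 in the middle of the light phase, Nr1d2, Dbp, Ciart and Per1 late in the light phase, and Per3, Hlf, Tef, Per2 and Wee1 around the change to darkness. With SEs of 0.59 to 1.52 h, neighbours such as Ciart and Per1, or Hlf and Tef, lay within their errors of each other, and differences between the peaks of genes were not tested.

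The second called gene, Fkbp5 (ENSMUSG00000024222, chr17:28399094-28517527, GRCm38, minus strand), is a co-chaperone of the glucocorticoid receptor and a classical target of that receptor. It stood at 84.6, 50.1, 78.8 and 87.8 CPM at 12 AM and 92.6, 97.9, 58.1 and 51.2 CPM at 8 PM. At 12 PM it was 28.3, 22.2, 38.1 and 35.7 CPM, at 8 AM 35.8, 33.9, 42.4 and 30.7 CPM, and at 4 AM 39.9, 53.0, 23.3 and 43.0 CPM. The 8 PM and 12 AM libraries lay above all 8 AM and 12 PM libraries. The 4 PM libraries, at 31.1 to 51.1 CPM, overlapped those of 8 AM, 12 PM and 12 AM. The amplitude was 0.66 ± 0.11 (2.51-fold peak to trough), the peak 22.1 ± 0.66 h and the adjusted p 0.0433. The call was lost in 15 of 24 fits that left out a single library, while the amplitude stayed between 0.62 and 0.70 and the peak between 21.8 h and 22.6 h. The TSC22 family gene Tsc22d3 (GILZ), another glucocorticoid target, had its fitted peak at 22.7 h but was not called (amplitude 0.47 ± 0.11, adjusted p = 0.346). Of the 14 glucocorticoid targets tested, 1 was called and 5 had an unadjusted p under 0.05, beside 0.0106% and 10.1% of all genes, with peaks from 5.6 h for Cdkn1a to 22.7 h for Tsc22d3.

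De novo lipogenesis, the making of fatty acids from sugar, was the metabolic list with the most members at a low p, although 0 of its 16 genes were called by edgeR. An unadjusted p under 0.05 was reached by 12 (75%, beside 10.1% of all genes), and all 12 fitted peaks lay between 23.3 h for Acacb and 3.4 h for Pnpla3. The median amplitude of the list was 0.66. Slc2a5, the fructose transporter, had the largest at 1.65 ± 0.37, with 16.8, 9.10, 8.21 and 5.46 CPM at 12 AM against 4.51, 2.02, 0.21 and 0.040 CPM at 4 PM. Its 12 AM libraries lay above those of 4 PM, and its adjusted p was 0.305. Slc25a1, the mitochondrial citrate carrier, had an amplitude of 0.61 ± 0.16 with a peak at 2.51 h, and was called without 4 AM library 1 (adjusted p = 0.0318). Acly, Fasn and Thrsp had amplitudes of 0.88, 0.83 and 0.89 and adjusted p-values of 0.346, 0.423 and 0.386. Scd1, the most abundant member at 19179 CPM, had an amplitude of 0.33 ± 0.18 and an unadjusted p of 0.123.

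Members of the glycolysis and cholesterol synthesis lists also had fitted peaks in the labelled night. An unadjusted p under 0.05, which 10.1% of all genes had, was reached by 8 of 18 glycolysis entries (17 symbols, Aldoa having 2 entries), with peaks from 1 h for Pfkl to 5.7 h for Pgam1, and by 9 of 20 cholesterol genes, with peaks from 23.8 h for Fdft1 to 6.87 h for Hmgcs1, and 0 were called in either list. Pmvk, a kinase of the mevalonate pathway, had an amplitude of 0.59 ± 0.14, a peak at 3.32 h and an adjusted p of 0.268, and Mvd one of 0.46 ± 0.12. Cidea, a lipid droplet protein of brown and beige fat, peaked at 0.45 ± 1.08 h (amplitude 0.63 ± 0.18, adjusted p = 0.346). Among the fatty acid oxidation genes, 1 of 16 had an unadjusted p under 0.05 (6.25%, under the 10.1% of all genes), Cpt1a, the gate of mitochondrial fatty acid import, with a peak at 15.6 ± 1.26 h. Cpt1a was called without 4 AM library 1 (adjusted p = 0.0259).

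Nampt, the rate-limiting enzyme of NAD salvage and a known clock output, was the only one of 17 NAD and sirtuin genes with an unadjusted p under 0.05 (5.88%, beside 10.1% of all genes). It stood at 534, 378, 297 and 362 CPM at 12 AM and 152 to 233 CPM at 4 PM, with a peak at 22.8 ± 1.16 h and an adjusted p of 0.423. In the heat shock list 7 of 15 genes (46.7%, beside 10.1% of all genes) had an unadjusted p under 0.05 and 0 were called, with fitted peaks from 0.04 h for Hsph1 to 5.6 h for Hspb1. Hsph1, a partner of HSP70, held 59.1 to 105 CPM at 12 AM and 24.6 to 30.4 CPM at 4 PM (amplitude 0.69 ± 0.17, adjusted p = 0.299). Hspa8, the constitutive HSP70, had an amplitude of 0.45 ± 0.14. The cold-inducible RNA-binding genes Cirbp and Rbm3 had adjusted p-values of 0.551 and 0.967.

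In the remaining lists 0 genes were called. An unadjusted p under 0.05 was reached by 6 of 15 adipokine and regulator genes, 3 of 19 lipolysis genes, 3 of 13 thermogenesis genes, 1 of 12 triglyceride synthesis genes, 3 of 20 insulin and FoxO genes and 1 of 15 immediate early genes. Beside the 10.1% of all genes, these shares were 40% for the adipokine list and from 6.67% for immediate early genes to 23.1% for thermogenesis in the others, with 15.8% for lipolysis, 8.33% for triglyceride synthesis and 15% for insulin and FoxO genes. Nrg4, a brown fat adipokine, had a fitted peak at 21.5 h and Apln at 1.66 h. None of the 10 adipocyte markers reached that p, and their median amplitude was 0.23.

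For the other genes, the spread of libraries around the fitted curve was large beside the fitted rhythms. This spread holds differences between libraries of a time and also any day course that is no 24-h cosine. The median residual SD of a gene around its cosine was 0.62 (log2), the median SE of an amplitude 0.18 and the median amplitude 0.27. At that SD, an ordinary F test on log2 CPM would need an amplitude of 1.22 to reach the p of the second called gene. This is a 5.40-fold change from trough to peak, and 370 genes (1.96%) had a fitted amplitude above it. The first principal component of log2 CPM took 34.6% of the variance and followed the lymphocyte marker level (r = -0.95 over the 24 libraries, which share their depth and normalisation). For 2606 genes (13.8%) over 0.5 of the variance between libraries was shared with that level, while for 43 genes (0.228%) over 0.5 lay on the 24-h cosine.

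The lymphocyte markers themselves had large fitted amplitudes without a call. Their mean level was 6.03 to 7.77 log2 CPM in 19 libraries and 0.17 to 4.89 log2 CPM in the other 5, which were 4 AM library 3, 8 AM libraries 1 and 4, and 12 PM libraries 1 and 3. No library of 4 PM, 8 PM or 12 AM was low, and the fitted peaks of these genes lay near 21 h. Fcmr, an IgM receptor of B cells, ranged from 0 to 169 CPM, with an amplitude of 2.12 ± 0.94 and an adjusted p of 0.94, and Cr2, a complement receptor of B cells, from 0.46 to 289 CPM with 2.04 ± 0.75 and 0.74. Other uncalled genes with the largest amplitudes and at least 5 CPM were Cd22, Dsc3, Fcer2a and Gm8221, with peaks of 20.8 to 21.6 h. In bulk tissue, fewer cells of a type and less RNA per cell cannot be told apart. The inguinal depot holds a lymph node, and the part of such tissue in these levels was not tested.

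**Figure D5:**
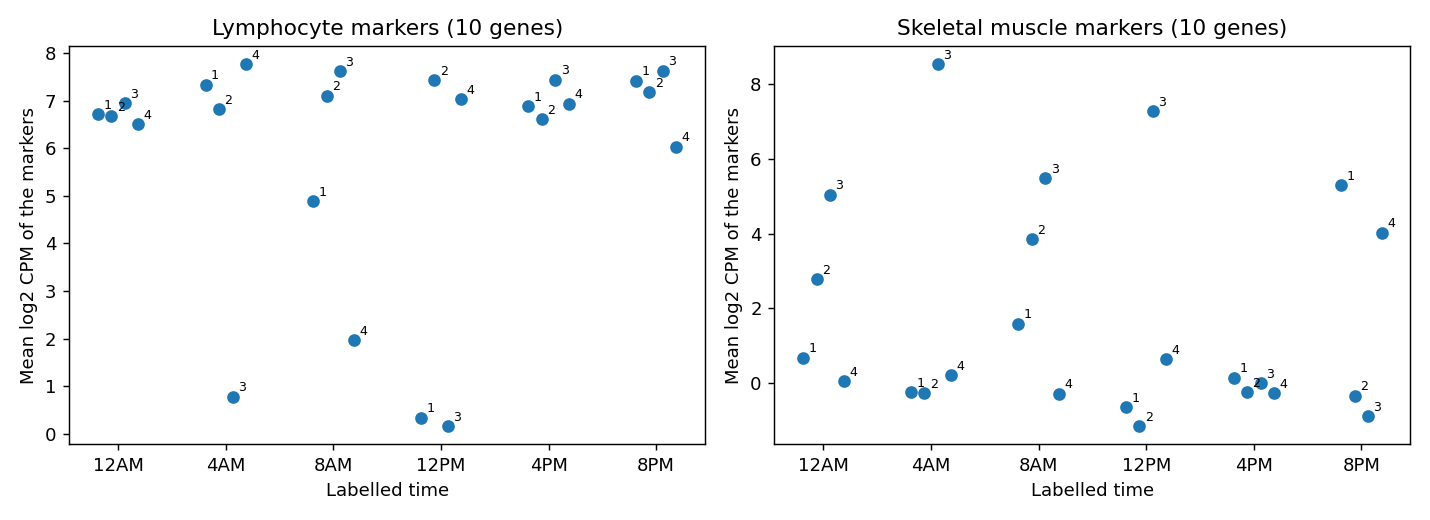
Mean log2 CPM of 10 lymphocyte markers (left) and 10 skeletal muscle markers (right) in each ad-lib library by labelled time, with the library number beside each point. The lymphocyte level is 6.03 to 7.77 in 19 libraries and 0.17 to 4.89 in 5 libraries of 4 AM, 8 AM and 12 PM, and the muscle level is highest in 4 AM library 3 (8.54) and 12 PM library 3 (7.27).

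The lymphocyte level shared unequal parts of the variance of the clock genes, namely 27.9% of the variance of Per2 and 22.3% of that of Npas2, but 7.05% of that of Nr1d1 and 2.35% of that of Nr1d2. Of the variance of the lymphocyte level itself, 16.3% lay on the 24-h cosine. These shares and the fits with this covariate therefore do not separate cell content from time of day. With the lymphocyte level as a covariate 1 gene was called (0.00531%), Npas2 (adjusted p = 0.00307), Fkbp5 had an adjusted p of 0.0676, and 1754 genes (9.31%) had an unadjusted p under 0.05. With that covariate and without 4 AM library 1, 178 genes were called, 9 of them core clock genes, among them Arntl (adjusted p = 0.032) and Nr1d1 (0.0103). With the 5 low libraries left out 17 genes were called, 4 of them core clock genes. Muscle markers did not have an unadjusted p under 0.05 in any of 10 genes. Erythrocyte markers did in 5 of 6, with fitted peaks of 9 to 9.9 h, and their mean level was 6.47, 5.47 and 4.94 log2 CPM in 8 AM libraries 1, 2 and 4 against 2.77 in 8 AM library 3 and 1.94 to 4.46 log2 CPM in all libraries not labelled 8 AM. With the lymphocyte covariate 1 of 6 erythrocyte genes, Hbb-bt, had an unadjusted p under 0.05. Hba-a1 and Hba-a2 are near-identical copies between which reads may be split.

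Peaks of the 1900 genes with an unadjusted p under 0.05 were spread unevenly over the day. Between 4 h and 8 h lay 732 of them (38.5%) and between 16 h and 20 h 355 (18.7%), beside 17.6% and 26.3% of all tested genes. Without 4 AM library 1 these windows held 1159 (37.1%) and 1033 (33.1%) of 3121. With the lymphocyte level as a covariate the order changed, with 428 of 1754 (24.4%) between 4 h and 8 h and 607 (34.6%) between 0 h and 4 h, against 213 (11.2%) of the 1900 in the latter window without the covariate.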

How the data were processed

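The authors selected poly-A RNA, sequenced it as paired-end reads and deposited raw counts per gene for 48 libraries, without normalisation, and group means of FPKM, which the authors deposited already averaged and which served here only to check the time labels. GEO's processing notes name TopHat 1.3.3; the counting tool and strandedness are not given in the sources used here. Gene coordinates match GENCODE M21 (GRCm38) for 98.1% of 54532 genes.

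The 24 ad-lib count columns were analysed with edgeR 4.0.16 in R 4.3.3, with filterByExpr (minimum count 10, time as group), TMM factors and a robust quasi-likelihood fit of a 24-h cosine and sine, and p-values adjusted by Benjamini-Hochberg. Amplitudes and peaks came from least squares on log2 CPM (prior count 2). DESeq2 1.42.0 and limma 3.58.1 were alternatives. Columns of sample values left unused numbered 0. The scripts were tested on simulated data. Replicate numbers did not pair libraries, with correlations over 0.1 in 11 of 60 same-number pairs. The lists and named genes were chosen with earlier results of these data known. Named genes were the core clock list, called genes, those of smallest p in every other list (2 each, or up to 4 called), those next to the threshold, and the 6 uncalled genes of largest amplitude with at least 5 CPM. Other genes given with values, such as Dbp, Tef, Hlf, Nfil3, Acly, Fasn, Thrsp, Scd1, Tsc22d3, Cirbp, Rbm3 and those at the ends of a range of peaks, were chosen after their values were seen. The TAN libraries were left out except in 1 alternative. Results for 2 genes of the core clock list are not reported here, although the counts of the list include them.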

Additional observations from a re-analysis of the deposited data

Results flagged for a closer look

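Within each time, a library was flagged where it lay far from the other 3 by Dixon's test. This was so for 28 of 438 sets of 4 libraries, and chance flags about 1 in 20.

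Among clock and output genes, 4 AM library 1 stood apart with 14.0 CPM of Arntl (others 28.3 to 30.7) and 6.96 CPM of Ciart (others 0 to 0.57). At other times the flagged values were 9.24 CPM of Per2 in 8 AM library 2 (others 1.81 to 2.49), 22.8 CPM of Wee1 in 12 AM library 1 (others 18.4 to 18.9) and 4.02 CPM of Wee1 in 8 AM library 1 (others 10.8 to 11.6). Ciart in 8 PM library 2 was 1.33 CPM (others 2.41 to 2.53), Dtx4 in 8 PM library 3 was 13.4 CPM (others 30.1 to 33.1), Timeless in 12 AM library 2 was 4.71 CPM (others 8.33 to 8.53) and Nampt in 4 AM library 2 was 297 CPM (others 186 to 194).

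Among metabolic and adipocyte genes, 4 AM library 1 had 35.5 CPM of Lpin2 (others 14.4 to 16.1) and 7487 CPM of Cfd (others 12777 to 13613). Acadvl was 45.5 CPM in 12 PM library 2 (others 89.1 to 94.7) and Aqp7 199 CPM in 8 PM library 4 (others 87.5 to 96.0). The mitochondrial share of counts was 3.57% in 12 PM library 2 (others 5.20% to 5.45%).

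Among markers of other cells, 4 AM library 3 had a lymphocyte level of 0.78 log2 CPM (others 6.82 to 7.77), a muscle level of 8.54 log2 CPM (others -0.26 to 0.21), 959 CPM of Myl1 and 3.93 CPM of Myh2. In 12 PM library 3 Myl1 was 442 CPM and Myh2 2.69 CPM. Myh2 was also flagged at 0.31 CPM in 12 AM library 2, 0.72 CPM in 4 PM library 2 and 0.10 CPM in 8 PM library 2. These values rest on 6, 14 and 2 counts. All other libraries of 12 AM and 8 PM had 0 counts of Myh2, so any read there would be flagged. The keratin Krt18 was 2.32 CPM in 4 AM library 1 and 1.67 CPM in 4 PM library 4, and Krt8 was 0.63 CPM in 12 AM library 2 and 1.0 CPM in 8 AM library 2. The endothelial Pecam1 was 137 CPM in 12 PM library 1 (others 261 to 276).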

How the results depend on the processing

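The count of 24-h rhythms (2) was 1900 at an unadjusted p under 0.05, 84 with the DESeq2 likelihood ratio test, and 0 with at least 10 counts in every library, a filter that removes Npas2. It was 1 with RLE factors, without mitochondrially encoded genes, with the 6 group means, and with lymphocyte, muscle or TEC share covariates. TEC is an annotation class of unproven transcripts. Fitted with all 48 libraries it was 16, and with the mammary epithelium marker covariate, whose level was highest in 4 AM library 1 (-0.64 log2 CPM, others -3.43 to -1.41), it was 289. That level rests on few reads, with 0 to 16.8 CPM summed over 10 markers. Alternatives chosen after seeing the data gave 56 without 4 AM libraries 1 and 3, 17 without the low-lymphocyte libraries, 9 with lymphocyte and muscle covariates, 178 with the lymphocyte covariate and 75 with limma-trend, both without 4 AM library 1. For core clock genes (1) the counts were 9 unadjusted, 0 with at least 10 counts, 7 with DESeq2, 2 with limma-trend or limma voom, 5 with 48 libraries, 7 with the mammary covariate, 8 without both 4 AM libraries, 4 without the low-lymphocyte libraries, and 9 in each of the last 2 fits.

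The replicate block, used although the numbers do not pair the libraries, gave 1 gene (Npas2) for the 24-h rhythm and 0 for the 6 times, and limma voom gave 0 for the 6 times (3 in the report). With a single library, or all libraries of a number, left out, the counts ran from 0 to 50 for the 24-h rhythm, 0 to 7 for core clock genes, 0 to 10 for the 6 times and 0 to 1 for the 12-h harmonic. The highest of the first 3 came without 4 AM library 1. Of the values for named genes under the alternatives, 3226 kept their side of the threshold, 105 gained a call and 33 lost it, and in no called gene did the peak move by more than 6 h. With 4 libraries a time and the median spread, an ordinary F test would need an amplitude of 1.22 for the p of the second called gene. That p depends on how many genes are called, so 1.22 is no fixed limit of the edgeR test. Genes of a few counts such as Npas2 and Ciart are the least precise. The causes of these changes were not tested.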

Other observations

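Without 4 AM library 1, which was singled out after seeing the clock genes, further genes outside the clock lists were called, and their values are given for that fit only. Gypc, a membrane skeleton protein of red cells and other tissues, had an amplitude of 0.50 ± 0.06 with a peak at 4.41 h (edgeR adjusted p = 0.00191), and Fkbp4, a co-chaperone of steroid receptors related to Fkbp5, one of 0.49 ± 0.06 with a peak at 2.54 h (0.00191).

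Tkt, an enzyme of the pentose phosphate pathway, had a fitted peak at 2.86 h (amplitude 0.75, edgeR adjusted p = 0.0318). Postn, a matrix protein, peaked on the other side of the day at 17.5 h (amplitude 0.66, adjusted p = 0.024), and Cldn5, a tight junction protein of endothelium, soon after the start of the light phase at 8.81 h (amplitude 0.60, adjusted p = 0.0259). These genes were chosen after their values were seen, and none was called with all 24 libraries by edgeR.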
